A study of Homo sapiens with 8 samples.

Results

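The genes described here are 42 human potassium channel genes, in a series where 34290 genes had a count. They cover inward-rectifier (KCNJ), tandem-pore (KCNK), small- and intermediate-conductance calcium-activated (KCNN) and sodium-activated (KCNT) channels. Also covered are the large-conductance calcium-activated channel (KCNMA1 and its KCNMB subunits) and KCNU1, a gene related to KCNMA1. The 42 genes were chosen by name from a list, and the deposited transcripts of each gene were summed. RNA was sequenced from HEK293T cells, a line of human embryonic kidney origin that takes up plasmids readily. A group of 4 libraries came from cells overexpressing KCNQ3, a subunit of the neuronal M-current channel, given as a tagged human open reading frame with FuGene HD, and a group of 4 came from cells labelled normal (control). Harvest at 48 hours after transfection is stated for all samples, and the same transfection text stands on the control samples, so the sources used here do not say what the control cells received. Nothing states that the libraries of a group came from separately started cultures, and the p-values therefore reflect library-to-library spread that may be technical.

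Potassium channels let potassium leave the cell and hold its membrane potential negative. Inward rectifiers pass current best near or below the potassium equilibrium potential and depend on the lipid PIP2. Some of them are opened by G-protein beta-gamma subunits, and others form the ATP-sensitive channel with a sulfonylurea receptor. Tandem-pore channels carry background leak currents, and the KCNM, KCNN and KCNT channels open with internal calcium or sodium. In the kidney, KCNJ1, KCNJ10 and KCNJ16 are known for potassium handling by tubule cells.

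Total estimated counts ran from 24738542 to 27542588 in overexpression libraries and from 24020097 to 30734915 in control libraries. KCNQ3 had 15283, 15874, 19709 and 18603 counts in overexpression replicates 1 to 4 and 4, 5, 0 and 2 in control replicates 1 to 4, which checks the labels. All 10 genes of a HEK293T list, such as the intermediate filament gene VIM, had a mean of at least 1 TPM. TPM is a level scaled by transcript length and library total. The marker lists were chosen with earlier results of these data known, so they give no independent check of cell identity. Of 3 blood cell markers, all were at 0 in every library, and of 3 glial markers none reached a mean of 1 TPM. Of 7 neuronal markers 3 did, and of 4 muscle markers 1 did. The summed level of the muscle list was 1.69 to 3.71 TPM in overexpression libraries and 3.11 to 3.73 TPM in control libraries. The summed level of the neuronal list was 8.37 to 24.2 TPM in overexpression libraries and 12.5 to 27.8 TPM in control libraries, and the part of either list in the results was not tested.

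Normal HEK293T cells expressed a minority of these channels at more than a trace. Of the 42 genes, 25 were detected in controls, meaning at least 1 count in each of the 4 control libraries, but only 9 reached a mean of 1 TPM there, KCNJ8 among them although one control library had none of it. By the same rule 23 genes were detected in the overexpression libraries. Transcripts of every annotated type entered the sums, so detection does not show that a coding transcript was present. KCNMB2 and KCNK12 were detected in controls and not in every overexpression library. KCNMB2 had 6, 0, 4 and 0 counts in overexpression replicates 1 to 4 and 2, 2, 5 and 3 in control replicates 1 to 4, and KCNK12 had 5, 4, 0 and 6 against 6, 10, 6 and 5. These counts are too low to show a difference. Another 9 genes had counts in some libraries without being detected in controls, and 8 had no count in any library. The members found in controls were 9 of 15 KCNJ, 6 of 15 KCNK, 4 of 6 KCNM and KCNU1, 4 of 4 KCNN and 2 of 2 KCNT genes.

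The 8 genes without a count were KCNJ6 and KCNJ9, which encode neuronal G-protein-gated inward rectifiers, KCNJ15, KCNJ16, the tandem-pore genes KCNK16, KCNK17 and KCNK18, and KCNU1, the sperm channel related to KCNMA1. A count of 0 at this depth does not show that a transcript is absent. Several of them lie next to members that were detected. On chromosome 6 (GRCh38, GENCODE 29 coordinates), KCNK5 spans 39188973 to 39229450, KCNK17 spans 39299001 to 39314553 and KCNK16 spans 39314698 to 39322968, all on the minus strand. KCNK5 had 193, 144, 184 and 152 counts in overexpression libraries and 201, 168, 175 and 153 in control libraries, while its 2 neighbours had none. On chromosome 17, KCNJ16 (70053429 to 70135608) had none, and KCNJ2 (70168673 to 70180048) had 14, 10, 22 and 14 counts against 10, 26, 14 and 11.

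The bases before the annotated start of KCNK5 and KCNK16 are shown because these 2 neighbours of one family differ in whether they were found at all. The pair was picked after the values had been seen and is an extreme one: KCNK16 has the fewest CG dinucleotides of the windows considered for genes without a count. Each line gives the 250 bases upstream of the RefSeq start (GRCh38.p14, minus strand, read 5′ to 3′), from 39229476 to 39229725 for KCNK5 and from 39322969 to 39323218 for KCNK16 on chromosome 6. Capitals mark CG dinucleotides.
KCNK5: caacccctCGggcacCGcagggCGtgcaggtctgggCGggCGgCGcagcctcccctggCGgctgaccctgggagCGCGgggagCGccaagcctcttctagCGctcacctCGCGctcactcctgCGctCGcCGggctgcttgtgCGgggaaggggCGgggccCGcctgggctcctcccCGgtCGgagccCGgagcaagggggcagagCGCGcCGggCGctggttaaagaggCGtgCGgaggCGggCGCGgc
KCNK16: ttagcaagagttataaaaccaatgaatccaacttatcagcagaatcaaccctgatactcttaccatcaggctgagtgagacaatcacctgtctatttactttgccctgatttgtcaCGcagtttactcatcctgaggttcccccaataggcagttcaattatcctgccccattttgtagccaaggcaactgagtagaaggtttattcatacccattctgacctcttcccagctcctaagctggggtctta
The KCNK5 window holds 31 CG dinucleotides and 77.2% G and C, and the KCNK16 window holds 1 and 43.6%. Windows were found for 34 of the 42 genes. Those without one were KCNJ11, KCNJ12, KCNMB4, KCNK9, KCNK12 and KCNK15, all detected in controls, and KCNJ9 and KCNU1, which had no count. Of the 34, 13 (38.2%) had more than 50% G and C together with an observed-over-expected CG ratio above 0.6. Of 27305 RefSeq promoter windows of the same length, 44.7% did. Among members detected in controls 10 of 19 did (52.6%), and among members not detected 3 of 15 did. KCNJ8 is counted with those 3 only because control replicate 1 had none of it: its mean control level was 8.15 TPM, and its observed-over-expected ratio, 0.601, lay just above the limit. Single genes ran against that difference. KCNJ6 had no count, with 25 CG dinucleotides in its window. KCNMB3 was detected with 1 and KCNJ4 with 4. KCNK17, the other neighbour of KCNK5 without a count, went with the difference. Its window held 8 CG dinucleotides and 64.4% G and C, with an observed-over-expected ratio of 0.314. The sequence TATAAA, searched on both strands, was in 6 of the 34 windows (17.6%) and in 11.1% of all windows, GGGCGG was in 19 (55.9%) and in 42.3%, and CCAAT was in 11 (32.4%) and in 33.0%. These are descriptions of annotated windows, and no difference between them was tested.

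By level per length, KCNK1 led among the 25 genes detected in controls, followed by KCNT2, KCNJ11, KCNMB4 and KCNJ4. KCNJ8 had a higher control mean, 8.15 ± 8.12 TPM, but is outside this order because control replicate 1 had none of it. KCNK1, a tandem-pore subunit that carries little current at the cell surface, stood at 7.17 ± 0.34 TPM in overexpression libraries and 6.996 ± 0.411 TPM in controls (SD, n = 4 each). KCNT2, a sodium-activated channel, stood at 5.19 ± 1.16 and 6.20 ± 1.185 TPM. In every library most KCNT2 counts lay on transcripts not annotated as coding, so this is not the level of its coding message. KCNJ11, the pore of the ATP-sensitive channel, stood at 5.17 ± 0.58 and 5.65 ± 0.71 TPM, and KCNMB4, an accessory subunit of KCNMA1, at 4.16 ± 0.70 and 4.81 ± 0.38 TPM. Of the 24 pairs of neighbours in the control order, 21 had overlapping ranges over the 4 control libraries. The order had 3 breaks: between KCNJ4 and KCNK5, between KCNJ12 and KCNJ14, and between KCNJ14 and KCNK15. KCNMA1, the pore that KCNMB4 accompanies, stood at 0.589 ± 0.08 and 0.526 ± 0.09 TPM, below its accessory subunit in every library of both groups.

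**Figure D1:**
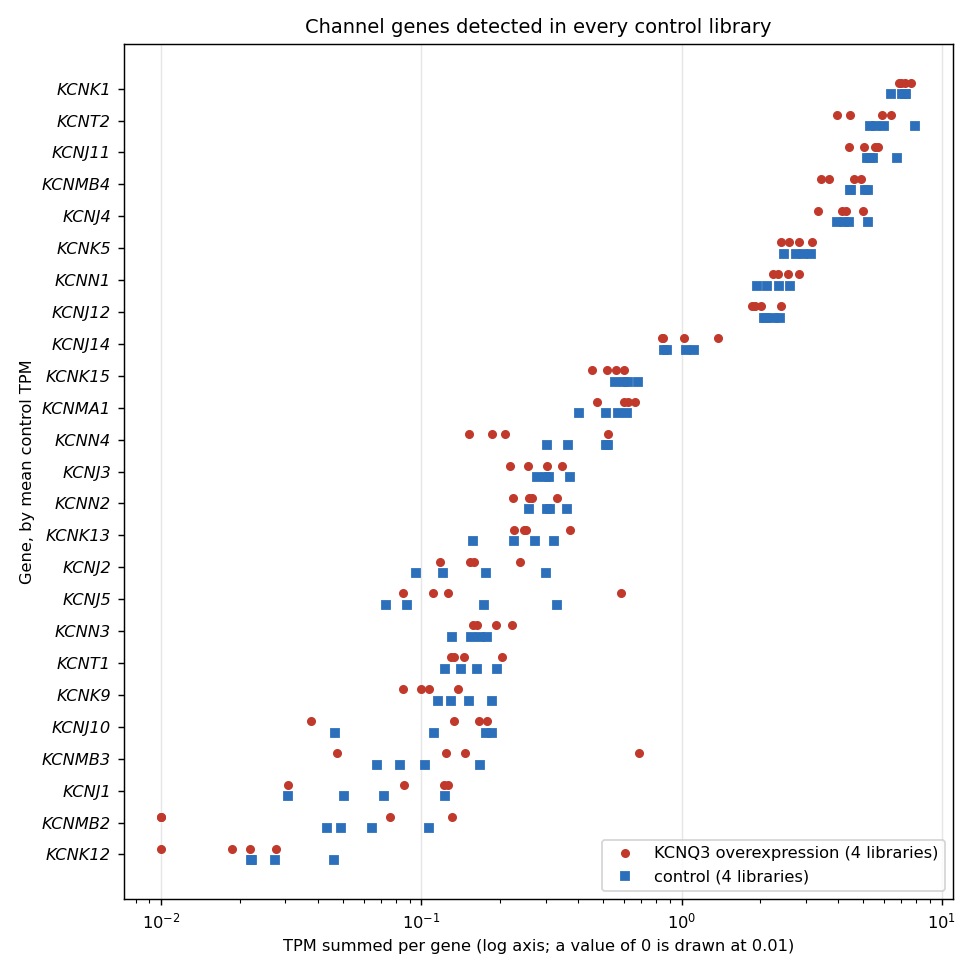
TPM summed per gene (log axis) for the 25 genes detected in every control library, with 4 KCNQ3 overexpression libraries (circles) above 4 control libraries (squares). KCNK1, at 6.40 to 7.27 TPM in controls, heads the order, and the 2 groups' ranges overlap in each of the 25 genes. A value of 0 is drawn at 0.01. KCNJ8, with a higher control mean of 8.15 TPM, is not drawn because control replicate 1 had none of it.

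Summed over the 42 genes, the level was 45.8 ± 5.1 TPM in overexpression libraries and 48.4 ± 7.5 TPM in controls (SD, n = 4 each). KCNQ3 alone reached 161 ± 16 TPM in the overexpression libraries, against 0.013 ± 0.010 TPM in controls. The part of the sum with the widest spread was KCNJ8, an ATP-sensitive inward rectifier of vascular muscle. Without KCNJ8 the sum was 37.9 ± 2.9 and 40.2 ± 1.7 TPM. KCNK genes summed to 11.0 ± 0.4 and 11.0 ± 0.8 TPM, KCNN genes to 3.21 ± 0.37 and 3.16 ± 0.34 TPM, and KCNT genes to 5.34 ± 1.14 and 6.36 ± 1.18 TPM. No test was made of these sums.

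No member changed past the test. The filter on low counts kept 22 of the 42 genes, and 0 of them passed at 0.05 by edgeR (quasi-likelihood test, Benjamini-Hochberg over 19280 genes). Of all genes, 0.301% passed, 0.109% higher and 0.192% lower in overexpression libraries. The lowest adjusted p among the 22 was 0.170 (edgeR). At an unadjusted p under 0.05 there were 2, both lower (9.09%), against 19.4% of all genes tested. DESeq2 called 0 of the 9 members to which it gave an adjusted p, against 9.9% of all genes with one. The other 13, KCNN4 among them, were left without one by its independent filtering. With that filtering off, an alternative added after seeing the data, all 22 had one, 0 passed and the lowest was 0.135. The median log2 fold change (overexpression over control) was −0.04 over the 22 and 0.01 over all genes tested, with 12 of the 22 below 0 (54.5%) against 47.4% of all genes. In 1 of the 22, lower, the groups did not overlap in CPM (counts scaled to a common library total after TMM), which is 4.55% against 11.6% of all genes (5.77% lower and 5.84% higher). A p that misses the threshold does not show equal levels, so the 95% intervals of the fold changes are given as limits. The interval lay within a factor of 1.5 either way for 13 of the 22, and within a factor of 2 for 18. The exceptions to the wider limit were KCNJ8, KCNN4, KCNJ5 and KCNMB3. Fewer transcripts per cell and fewer cells expressing a gene cannot be told apart in such bulk RNA.

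**Figure D2:**
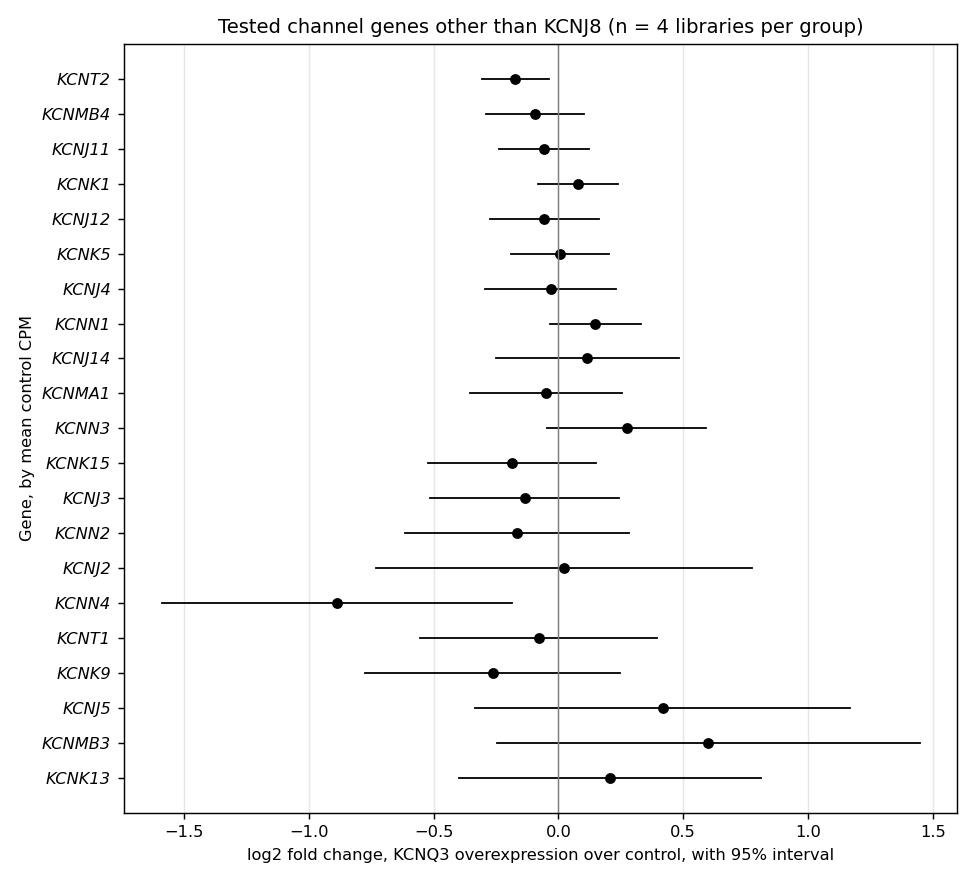
The log2 fold change of 21 tested genes (points) with its 95% interval (lines), overexpression over control, ordered by control CPM. KCNT2 (−0.17) and KCNN4 (−0.89) are the 2 whose intervals exclude 0 before adjustment. KCNJ8 is left out because its interval, −3.61 to 3.64, would set the scale.

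Among inward rectifiers, none of the abundant members passed the test. KCNJ11 (chromosome 11, 17385859 to 17389331) had 255, 195, 267 and 219 counts in overexpression replicates 1 to 4 and 323, 238, 223 and 236 in control replicates 1 to 4. The groups overlapped at 9.17 ± 0.82 and 9.55 ± 0.64 CPM, and the fold change was 0.960 (95% interval 0.847 to 1.09). KCNJ12, a strong rectifier of heart and muscle, was at 6.87 ± 0.92 and 7.14 ± 0.40 CPM, with an interval of 0.826 to 1.12. KCNJ12 shares stretches of up to 293 identical bases with KCNJ18, so the authors' division of reads between them is uncertain. KCNJ18, not on the list, had 20, 18, 26 and 25 counts in overexpression libraries and 27, 22, 22 and 15 in controls. KCNJ4, a neuronal strong rectifier, was at 5.51 ± 0.87 and 5.63 ± 0.51 CPM (interval 0.816 to 1.17), and KCNJ14 at 2.60 ± 0.55 and 2.40 ± 0.40 CPM (interval 0.840 to 1.40).

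KCNJ8 (chromosome 12, 21764955 to 21775581) stood apart by its zeros. It had 0, 307, 313 and 529 counts in overexpression replicates 1 to 4 and 0, 203, 643 and 286 in control replicates 1 to 4. Replicate 1 of each group was listed at 0, and the other 3 libraries of each group overlapped. All counts given to the gene were on 1 transcript, KCNJ8-201 (ENST00000240662). Whether any of the 21947 transcript identifiers that matched no gene belong to KCNJ8 could not be checked. The log2 fold change was 0.02 (SE 1.49), and 0.01 (SE 0.60) without replicate 1 of either group, an alternative added after seeing the data. With a single library left out it ran from −0.50 without overexpression replicate 4 to 0.87 without control replicate 3, so the data set no direction for KCNJ8. ABCC9, which encodes the sulfonylurea receptor that joins KCNJ8 and lies beside it on chromosome 12, had 21, 22, 28 and 23 counts in overexpression libraries and 27, 26, 34 and 23 in controls, with none at 0. ABCC8, the receptor that joins KCNJ11 and lies beside it on chromosome 11, was at 7.68 ± 0.38 and 8.06 ± 0.24 CPM. Both receptors are named here as direct subunits.

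The G-protein-gated rectifier subunits were at trace levels. KCNJ3 had 22, 25, 21 and 16 counts in overexpression libraries and 32, 23, 19 and 23 in controls, for a fold change of 0.911 (interval 0.700 to 1.18). KCNJ5 had 20, 11, 14 and 8 counts against 8, 17, 7 and 9, and the groups overlapped (log2 fold change 0.42, SE 0.34, edgeR adjusted p = 0.544). KCNJ2, a strong rectifier of heart muscle, was at 0.585 ± 0.17 and 0.583 ± 0.29 CPM. KCNJ1 and KCNJ10, the channels of kidney tubule and glia, were detected but below the test's filter. KCNJ1 had 8, 2, 6 and 8 counts in overexpression libraries and 6, 3, 8 and 4 in controls. KCNJ10 had 10, 11, 4 and 7 against 12, 10, 10 and 4. KCNJ13, a rectifier of retinal pigment epithelium, had 0, 3, 0 and 2 against 0, 2, 0 and 0.

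None of the tandem-pore genes passed the test. KCNK1 had 226, 224, 254 and 244 counts in overexpression libraries and 263, 241, 219 and 215 in controls, and its fold change was 1.06 (interval 0.946 to 1.18). KCNK5, an acid-sensitive leak channel of kidney tubules, was at 6.59 ± 0.57 and 6.57 ± 0.53 CPM (interval 0.876 to 1.151). KCNK15 was at 0.854 ± 0.11 and 0.977 ± 0.10 CPM, KCNK13 at 0.426 ± 0.11 and 0.367 ± 0.10 CPM, and KCNK9, an acid-sensitive leak channel of neurons, at 0.352 ± 0.07 and 0.428 ± 0.06 CPM. In all 3 the groups overlapped. KCNK9-210, annotated for nonsense-mediated decay, had 9, 8, 12 and 7 counts in overexpression libraries and 11, 10, 12 and 11 in controls. No coding transcript of KCNK9 had a count, so its level is not that of a coding message. KCNK2, KCNK3, KCNK4, KCNK6, KCNK7 and KCNK10 had at most 6 counts in any library. Stretch-gated KCNK2 had 0 counts in each overexpression library and 0, 0, 3 and 0 in controls, and acid-sensitive KCNK3 had 0 in each overexpression library and 0, 2, 0 and 0 in controls.

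Among calcium-activated channels, KCNN4 had the largest fitted change of the 22. KCNN4, the intermediate-conductance channel of red cells and lymphocytes, had 5, 12, 6 and 7 counts in overexpression replicates 1 to 4 and 20, 12, 10 and 17 in control replicates 1 to 4. Scaled, it was at 0.188, 0.496, 0.224 and 0.290 CPM in overexpression libraries and 0.649, 0.454, 0.418 and 0.676 CPM in controls. Overexpression replicate 2 lay above 2 of the controls, so the groups overlapped. The log2 fold change was −0.89 (SE 0.32, edgeR adjusted p = 0.170). The counts of KCNN4 were divided differently among its transcripts from library to library. KCNN4-211 had 0 counts in each overexpression library and 3, 0, 6 and 16 in controls. KCNN4-209 had 0, 9, 6 and 5 against 16, 9, 2 and 0. Both were too low to be tested.

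The small-conductance genes, whose channels open through bound calmodulin, did not pass either. KCNN1 was at 4.92, 5.21, 5.45 and 5.22 CPM in overexpression libraries and 4.54, 5.15, 4.35 and 4.73 CPM in controls, a fold change of 1.11 (interval 0.976 to 1.26). KCNN3 was at 1.54 ± 0.23 and 1.27 ± 0.14 CPM (fold 1.21, interval 0.968 to 1.51), and KCNN2 at 0.607 ± 0.11 and 0.679 ± 0.13 CPM (fold 0.892, interval 0.653 to 1.22). The groups overlapped in each.

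KCNMA1, the large-conductance pore, was at 1.99, 1.57, 1.57 and 1.62 CPM in overexpression libraries and 1.95, 1.70, 1.421 and 1.91 CPM in controls, with a fold change of 0.965 (interval 0.782 to 1.19). KCNMB4 had 280, 257, 369 and 308 counts against 385, 337, 304 and 325. Its overexpression libraries spread from 10.5 to 13.8 CPM around controls at 12.5 to 12.9 CPM (fold 0.937, interval 0.818 to 1.07). KCNMB3 had 15, 24, 12 and 6 counts against 9, 8, 9 and 13, and 22 of the 24 in overexpression replicate 2 were given to 1 transcript, KCNMB3-204, which had 0 in every other library. KCNMB1, the smooth muscle subunit, had 1 count in each group.

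**Figure D3:**
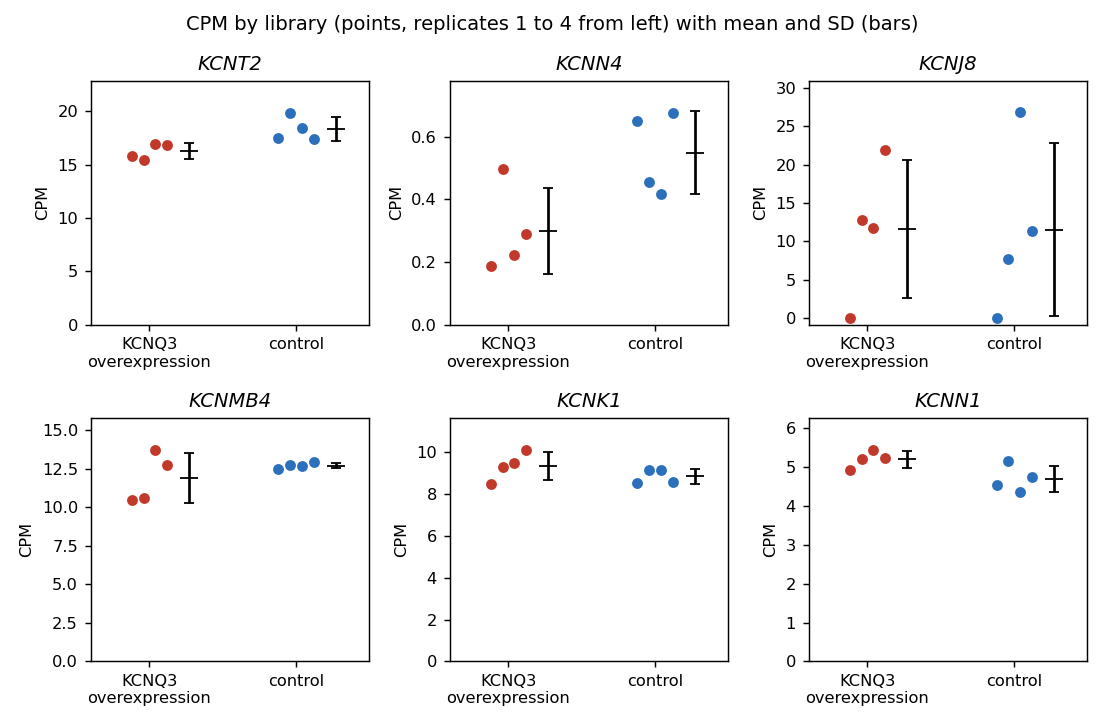
CPM of 6 genes in each library (points, overexpression left and control right), with the mean and SD (bars). KCNT2 is the gene whose groups do not overlap, KCNN4 has overexpression replicate 2 inside the control range, and KCNJ8 is at 0 in replicate 1 of both groups.

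KCNT2 (chromosome 1, 196225779 to 196609225) was the 1 tested member whose groups did not overlap in CPM. It was at 15.8, 15.4, 16.9 and 16.9 CPM in overexpression replicates 1 to 4 and 17.5, 19.9, 18.4 and 17.4 CPM in control replicates 1 to 4. Every overexpression library was lower, by a small margin. The log2 fold change was −0.17 (SE 0.06, edgeR adjusted p = 0.171). In TPM the groups overlapped, at 5.91, 3.98, 6.41 and 4.46 against 6.01, 7.92, 5.29 and 5.59. The other sodium-activated gene, KCNT1, was at 0.456 ± 0.11 and 0.479 ± 0.01 CPM (interval 0.682 to 1.32). Most KCNT1 counts lay on transcripts annotated as retained introns. KCNT1-205 had 9, 8, 8 and 5 counts in overexpression libraries and 11, 3, 5 and 7 in controls, and KCNT1-210 had 0, 6, 3 and 0 against 4, 3, 0 and 4. The coding KCNT1-202 had 0, 0, 0 and 6 against 0, 7, 6 and 0.

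The counts of KCNT2 were divided very differently among its transcripts from library to library. Of 8 transcripts, 7 had a count. KCNT2-208, annotated for nonsense-mediated decay, held 54.7%, 98.4%, 37.3% and 84.3% of the gene's counts in overexpression replicates 1 to 4 and 64.1%, 33.0%, 87.3% and 63.9% in control replicates 1 to 4. KCNT2-207, a processed transcript, held 41.5%, 1.1%, 62.7% and 0.0% against 6.1%, 45.5%, 8.2% and 7.5%. Neither separated the groups. KCNT2-205, a processed transcript of 5157 bases, had 3, 0, 0 and 7 counts in overexpression libraries and 40, 46, 20 and 31 in controls. Its groups did not overlap, but the share of all tested transcripts without overlap was not computed, so this cannot be called unusual. The log2 fold change of KCNT2-205 was −3.65 (SE 1.00), with an edgeR adjusted p = 0.801 over 47129 transcripts, while DESeq2 gave −3.72 and an adjusted p = 0.00544. KCNT2-203, a coding transcript, had 11, 0, 0 and 0 counts against 59, 67, 0 and 94, and the groups overlapped. Of the other coding transcripts with a count, KCNT2-201 had 0, 0, 0 and 41 against 60, 0, 0 and 0. KCNT2-202 had 0, 0, 0 and 16 against 0 in each control. Overexpression replicates 2 and 3 and control replicate 3 thus had no count on a coding transcript of KCNT2. The division of reads among transcripts is the authors' estimate.

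In all, 22 member transcripts of 17 genes were tested, and 0 passed by edgeR, where 0.0127% of all transcripts passed. KCNT2-205 was the 1 of the 22 with an unadjusted p under 0.05, against 5.58% of all transcripts. DESeq2 called KCNT2-205 alone, where 1.13% of all transcripts with an adjusted p were called. The counts of KCNJ3 were also divided differently from library to library. Overexpression replicates 1, 2 and 4 had 22, 25 and 16 counts on KCNJ3-203 and 0 on KCNJ3-201, while overexpression replicate 3 had 21 on KCNJ3-201. Controls 2 to 4 had 23, 19 and 23 on KCNJ3-201 and 0 on KCNJ3-203, and control 1 was split into 17 and 15. KCNJ3-203 had a log2 fold change of 2.21 (SE 1.57, edgeR adjusted p = 0.960). For KCNMA1, 9 of 93 transcripts had a count. KCNMA1-202 had 43, 25, 0 and 0 in overexpression libraries and 36, 0, 11 and 25 in controls. KCNT2-201, KCNT2-202, KCNT2-203, KCNT2-205, KCNT2-207, KCNJ3-203, KCNN4-209, KCNN4-211, KCNMB3-204, KCNK9-210, KCNT1-202, KCNT1-205 and KCNT1-210 were named after their values were seen.

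**Figure D4:**
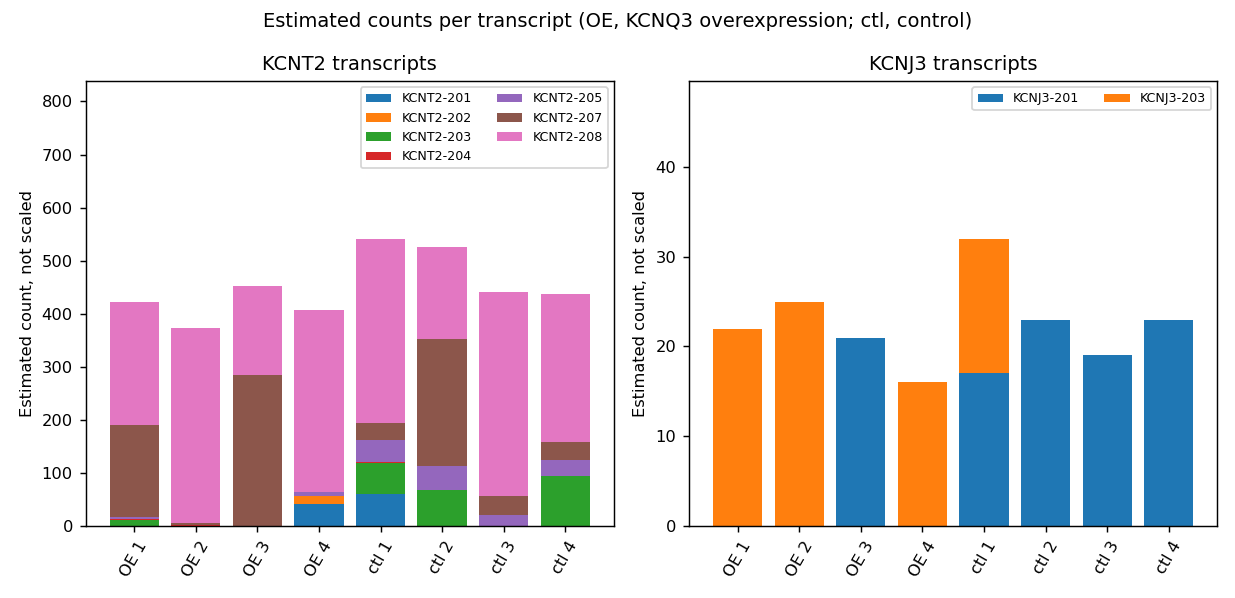
Estimated counts per transcript in each library (stacked bars, overexpression left and control right) for KCNT2 and KCNJ3. Totals run from 373 to 541 for KCNT2 and from 16 to 32 for KCNJ3, and the transcripts that receive them differ between libraries. KCNT2-205, picked after its values were seen, has at most 7 counts in an overexpression library and at least 20 in a control.

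Genes whose products work with these channels were taken from a list of 43. It held sulfonylurea receptors, LRRC subunits of KCNMA1 channels, calmodulins with the kinase and phosphatase bound to KCNN channels, G-protein subunits, and trafficking and PIP2 enzymes. The filter kept 39, and 0 passed edgeR's test over all genes (lowest adjusted p 0.0841), where 0.301% of all genes passed. At an unadjusted p under 0.05 there were 11 of 39 (28.2%), 5 higher and 6 lower, against 19.4% of all genes. DESeq2 called 7 of the 34 to which it gave an adjusted p (20.6%), against 9.9% of all genes with one. Their median log2 fold change was −0.01. CALM2, a calmodulin gene, had the largest fitted change at −0.34 (SE 0.86), at 119 ± 62 CPM in overexpression libraries and 150 ± 111 CPM in controls. GNG10, a G-protein gamma subunit, followed at 0.31 (SE 0.10), with 19.2 ± 1.0 and 15.4 ± 2.3 CPM. The most abundant were the 14-3-3 genes YWHAE, at 1049 ± 90 and 1079 ± 48 CPM, and YWHAZ, at 491 ± 14 and 480 ± 12 CPM. LRRC26, the KCNMA1 subunit of secretory epithelia, was at 1.24 ± 0.41 and 1.28 ± 0.13 CPM and is named outside the rule, and LRRC52 and LRRC55 had no count.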

How the data were processed

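RNA-seq libraries of HEK293T cells, 4 per group, were analysed from 2 tables with 227751 Ensembl transcripts each. The submitters' processing notes name StringTie 2.1.0, HISAT2 2.1.0, SAMtools 1.9, FastQC 0.11.5, cutadapt 2.8 and the build GRCh38.p13, without saying what each did. The authors deposited estimated counts per transcript, which were whole numbers, and TPM per transcript. The sources used here do not say whether counting used strand.

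Transcripts were summed per gene through GENCODE 29 (GRCh38). Of the identifiers, 205804 matched, holding 98.7% to 98.9% of each library's counts, and 21947 did not and could be given to no member. The 12 replicate pairs gave a chi-square of 9.72 to 18.6 per degree of freedom over genes, so no library repeats another. The main test was edgeR 4.0.16's quasi-likelihood test (R 4.3.3, TMM, filterByExpr with minimum count 10 and total 15), with Benjamini-Hochberg adjustment over all features. Alternatives used DESeq2 1.42.0 and limma 3.58.1. Intervals are 95% intervals from edgeR's standard error.

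In data simulated for the gene comparison (19280 genes), the test recovered 18% of genes changed by 1.25 times, 62% at 1.5, 86% at 2 and 92% at 4 times, with 6 false calls of 135. For transcripts (47129) the test recovered 0% at 2 and 4 times, 34% at 16 and 66% at 64 times. These shares are over all simulated features and were not split by level, so they do not give the recovery for low-count members. Promoter windows came from RefSeq (GRCh38.p14). Those printed had a RefSeq start within 200 bases of the GENCODE gene's and held no annotated exon. This display rule was revised 3 times after its output was seen, and the printed pair was picked with values known. All members are accounted for; partner genes were named if past the threshold, and otherwise as the 2 largest changes and the 2 most abundant. The fit without replicate 1 of either group and the DESeq2 fits without one of its filters were added after seeing the data. Members, partner and marker lists were chosen with earlier results of these data known.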

Additional observations from a re-analysis of the deposited data

Results flagged for a closer look

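KCNMA1 in overexpression replicate 1, at 1.99 CPM, stood apart from the other overexpression libraries, at 1.57 to 1.62 CPM. Of 44 groups examined (22 genes in each of the 2 groups) this was 1, and chance marks about 1 group in 20. Controls reached 1.95 CPM.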

How the results depend on the processing

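The count of members past the threshold was 0 in each of the 15 alternatives fixed for it and in the 3 added after seeing the data (without replicate 1 of either group, and DESeq2 without independent filtering or without the filter on low counts). Of 363 recomputed fold changes of the 22 tested members, 338 had an adjusted p, of which 0 passed and the lowest was 0.102. To the other 25 DESeq2 gave none, so they could not be called. With a mean of at least 50 counts required, only 10 members were tested, and the others, KCNN4 among them, could not be called either. In 7 members (KCNJ2, KCNJ4, KCNJ8, KCNJ14, KCNK5, KCNMA1 and KCNT1) the sign differed in some alternative. DESeq2 called 1352 genes in all (602 higher and 750 lower) against 58 by edgeR, 1178 without independent filtering and 727 without the filter on low counts. In the same order it called 7, 6 and 4 partner genes and 1 member transcript each time. The 7 were named by DESeq2 with both filters (GNG5 and GNG10 higher, PPP2CA, GNG12, GNAI3, GNG4 and CSNK2A2 lower), and the transcript was KCNT2-205. Over all genes the count was 35 without a scaling factor (9 higher and 26 lower, against 21 and 37), 7 with limma on either TPM scale (5 higher and 2 lower), and 8 to 378 with 1 library left out (378 without overexpression replicate 1, 194 without control replicate 4, and 8 to 20 without any other). Leaving out 1 library gave 0 members, 0 member transcripts and 0 partner genes in every case, and 25 or 26 members detected in controls. With a mean of at least 1 TPM as the rule, 9 members were detected in controls. The cause of these differences was not tested. With the replicate number as a block, edgeR called 86 genes and 0 members. Libraries with the same number did not deviate together (r from −0.046 to 0.014, against −0.075 to 0.080 for other pairs), and 0 of 4 overexpression libraries correlated best with the control of their own number, so the numbers are not treated as pairs. Depth limits the test, and genes without about 10 counts in at least 4 libraries were left untested. A tested gene could have fewer in other libraries, as KCNN4 did with 5, 12, 6 and 7 counts in overexpression libraries.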
